A study of Rattus norvegicus with 47 samples.

Results

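Contralateral hippocampus at 4 h after brain injury was compared with contralateral cortex at 24 h in the rat. The 17 arrays compared were every array that GEO's labels place in these groups, 9 of hippocampus (numbered 23 and 25 to 32) and 8 of cortex (41 to 48), of 47 arrays in the whole study. The pair of groups was chosen because the bacterial spike-in controls, added to each sample as a technical standard, stood at similar levels in both. All probe sets other than controls were examined.

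The study measured total RNA, extracted with Trizol, from rat brain after injury on oligonucleotide arrays, with 1 sample per array. Its groups are defined by side (ipsilateral or contralateral to the injury), region (cortex, or "HC", read here as hippocampus) and hours after injury. Hippocampus was sampled at 4 h, and cortex at 4 h and 24 h. Every sample carries the same treatment label, "wait".

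The labels give no uninjured or sham-operated group, no strain, sex or age, and no kind of injury, so neither group is a baseline for the other. Region and time both differ between the groups and cannot be told apart within the 17 arrays. Contralateral cortex at 4 h (8 arrays), ipsilateral hippocampus at 4 h (7) and ipsilateral cortex at 24 h (8) are therefore given beside some results. Whether each array is a different animal is not stated, so the p-values speak only to variation among these RNA samples, part of which may be technical. In tissue RNA, fewer cells of a type and less RNA per cell cannot be told apart.

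Levels are given as log2 of the deposited signal, with every signal below 185.8 (log2 7.54, the 25th percentile of all values) raised to that floor. A difference of 1 on this scale is 2-fold. Where arrays of the dimmer group lie at the floor, the fold given is a lower bound. A gene counted as higher or lower when its limma p-value, adjusted by Benjamini and Hochberg over the 7503 probe sets tested, was below 0.05.

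The mean log2 level of the spike-in controls, the measure that chose the groups, ran from 11.8 over a median of 11.96 to 12.3 in hippocampus and from 11.96 over 12.25 to 12.58 in cortex at 24 h. In contralateral cortex at 4 h it ran from 12.81 to 13.45. The median signal per array was higher in hippocampus (804.5 to 881.8) than in cortex (708.0 to 805.6; exact permutation test, two-sided, p = 0.000165, adjusted 0.000658 over 4 measures). The 3-prime to 5-prime ratio of the beta-actin control, a sign of RNA integrity, was lower in hippocampus (1.23 ± 0.094 against 1.45 ± 0.078, SD, n = 9 and 8; exact permutation p = 0.000411, adjusted 0.000823), while that of Gapdh was 1.09 ± 0.041 against 1.08 ± 0.036 (exact permutation p = 0.64). The 10th percentile of signal was 65.5 ± 16.3 in hippocampus and 51.8 ± 7.77 in cortex (exact permutation p = 0.0345, adjusted 0.046), and this difference did not pass without array 23, the hippocampal array with the highest value (99.5). Across probe sets, arrays of hippocampus correlated with each other at Pearson's r of 0.949 to 0.98, those of cortex at 0.97 to 0.985, and arrays of different groups at 0.936 to 0.971. Array 32 stood apart in the named genes: 11 of the 28 values that lay far from the rest of their group were its own. Left out in turn, arrays 23 and 32 left 1297 and 1340 calls in place of 1483. Over all 17 arrays, each left out in turn, the calls ran from 1284 to 1596. The part of these array differences in the results was not tested.

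The hippocampus is a folded sheet of granule and pyramidal neurons serving memory and spatial coding, and the neocortex is a layered sheet with many classes of projection neuron and interneuron. The regions differ in transcription factors laid down in development, in receptors for glutamate, GABA and monoamines, and in ion channels that set firing. Neurons also carry transcripts whose level follows recent activity, the immediate early genes, which rise and decay within hours. Injury to one hemisphere can reach the other through commissural fibres, seizures, spreading depolarisation or circulating hormones.

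The probe sets past the threshold numbered 1483 of 7503 (19.8%). They split into 768 that were higher in hippocampus (10.2% of those tested) and 715 that were lower (9.53%). Of these 88 were higher and 119 lower by at least 2-fold, and 9 and 13 by at least 4-fold. The groups did not overlap at all for 169 higher probe sets (2.25%) and 233 lower ones (3.11%). Counted per gene, with each gene represented by its probe set of highest mean signal, 473 of 4242 genes were higher (11.2%) and 418 lower (9.85%), and the median difference over all genes was 0.085. These gene shares are the background for every gene group below. A range given after a group's count is over 6 other settings: arrays shifted to the same median, quantile normalization, the 10th percentile of signal or the spike-in level as a covariate, and array 23 or array 32 left out. Counts given without a range were not all constant over these settings. The split depends on scaling: with every array shifted to the same median signal, 380 were higher and 1028 lower (27% higher in place of 51.8%), since the median signal itself was higher in hippocampus. Of 1346 genes with at least 2 tested probe sets, 467 had a call, 192 had at least 2 calls in the same direction, and 3 (Grin1, Tpm1 and Tpm3) had calls in both.

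The tissue labels were set beside region markers taken from textbook knowledge. These markers were chosen with earlier results of these data known, so they are not an independent check of the labels. Of 15 measured hippocampus-enriched markers, 7 were higher, 2 lower and 6 did not pass, with a median difference of 0.565. The 7 higher ones were Htr1a, Nr3c2, Rgs14, Neurod1, Grik4, Gabra5 and Hpca. The pair that was lower was Pcp4, a calmodulin regulator, and Tyro3, a receptor tyrosine kinase. Of 13 cortex-enriched markers, 9 were lower, 1 higher and 3 did not pass, with a median of −1.2. The 9 lower ones were Kcns1, Rgs4, Cux1, Rorb, Vip, Htr2a, Stx1a, Pvalb and Nefh, and the higher one was the calcium sensor Hpcal4. Without array 23 or array 32 the counts for lower cortical markers stayed at 9 and for higher hippocampal markers at 7. The call of Hpcal4 (0.32, SE 0.12, limma adjusted p = 0.0475) was lost without array 23 and without most other single arrays.

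Rgs14, a signalling protein of hippocampal field CA2 that limits plasticity, had log2 levels of 12.19, 12.33 and 12.89 (lowest, median, highest) in hippocampus and 10.74, 11.11 and 11.44 in cortex. The groups did not overlap, and Rgs14 was 2.55-fold higher in hippocampus (SE 0.12 log2 units, limma adjusted p = 1.56e-12). Rorb, a nuclear receptor of cortical layer IV neurons, was above the floor on 2 of 9 hippocampal arrays (highest 8.45) and on 8 of 8 cortical ones (8.66 to 10.35). It was at least 3.23-fold lower in hippocampus (limma adjusted p = 4.7e-06). Against contralateral cortex at 4 h the Rorb difference was smaller (−0.705, limma adjusted p = 0.0436). The cortical time points (24 h minus 4 h) differed by 0.988 for Rorb (limma adjusted p = 0.00901). Cux1, a homeobox factor of upper cortical layers, ran from 9.76 to 10.28 in hippocampus and from 11.51 to 12.09 in cortex, a 3.33-fold difference with no overlap.

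Genes with the largest differences that were higher in hippocampus took in receptors, signalling enzymes, a growth factor and transcription factors. By the naming rule, 12 genes were taken whose groups did not overlap and whose hippocampal arrays all lay above the floor. The first was Gpr161, an orphan receptor of the primary cilium that restrains Hedgehog signalling. Its levels were 12.28, 12.42 and 12.89 in hippocampus and 9.36, 9.52 and 9.88 in cortex, a 7.86-fold difference (log2 2.97, SE 0.13, limma adjusted p = 2.47e-23). The lowest hippocampal array stood more than 2 log2 units above the highest cortical one.

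The serotonin receptor gene Htr5b followed at 10.20, 10.64 and 11.04 in hippocampus against 7.54, 7.87 and 9.48 in cortex. It was 5.63-fold higher (log2 2.49, SE 0.26, limma adjusted p = 5.82e-11), with 3 of 8 cortical arrays at the floor. Dgkg, a diacylglycerol kinase that ends lipid signals to protein kinase C, ran from 10.23 to 11.11 against 7.54 to 9.30 (5.22-fold), and both of its probe sets were called. The other, brighter one was 3.52-fold higher. Doc2b, a calcium sensor for spontaneous vesicle release, ran from 9.52 to 10.54 against 7.54 to 9.03 (4.8-fold).

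Nnat, an imprinted gene for a small membrane protein of developing and adult neurons, was among the tightest: 15.32, 15.59 and 15.66 in hippocampus and 13.05, 13.37 and 13.87 in cortex, a 4.52-fold difference (SE 0.09 log2 units, limma adjusted p = 1.42e-24). Wipf3, an actin regulator of the verprolin family, ran from 12.75 to 13.51 against 10.65 to 11.23 (4.25-fold), with 3 of 3 probe sets called. Lpl, lipoprotein lipase, ran from 11.59 to 12.10 against 9.88 to 10.45 (3.1-fold), with 3 of 3 called. For each of these 3 genes every array of either group was above the floor.

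Nr3c2, the mineralocorticoid receptor that binds corticosteroids at resting levels, ran from 9.81 to 10.97 in hippocampus and from 7.54 to 9.12 in cortex (3.79-fold, limma adjusted p = 1.07e-08). Neurod1, a helix-loop-helix factor of granule neurons, ran from 9.33 to 10.64 against 7.93 to 8.76 (3.06-fold). Ntf3, the growth factor neurotrophin-3, ran in its leading probe set from 8.72 to 9.61 in hippocampus and was above the floor on 0 of 8 cortical arrays, so this probe set was at least 3.38-fold higher (limma adjusted p = 6.81e-20). Its brighter probe set was above the floor in both groups, from 11.32 to 11.91 against 9.90 to 10.42 (2.75-fold). Both probe sets of each of these 3 genes were called. The other, brighter probe sets of Nr3c2 and Neurod1 were 2.58-fold and 2.49-fold higher.

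Cebpb, a transcription factor of the acute phase and injury response, had a wider spread in hippocampus: 9.76, 10.88 and 11.27, against 8.40, 8.76 and 8.90 in cortex (4.22-fold, SE 0.27 log2 units, limma adjusted p = 3.13e-08). In contralateral cortex at 4 h its median was 9.84, between the other levels. The difference between hippocampus and cortex at matched time was 1.04 (limma adjusted p = 0.00227), and cortex at 24 h lay 1.04 log2 units below cortex at 4 h (−1.04, adjusted p = 0.00461). These comparisons share arrays with the main one. Htr2c, a serotonin receptor of choroid plexus and of hippocampal neurons, ran from 8.34 to 9.75 and was above the floor on 2 of 8 cortical arrays (3.06-fold).

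**Figure D1:**
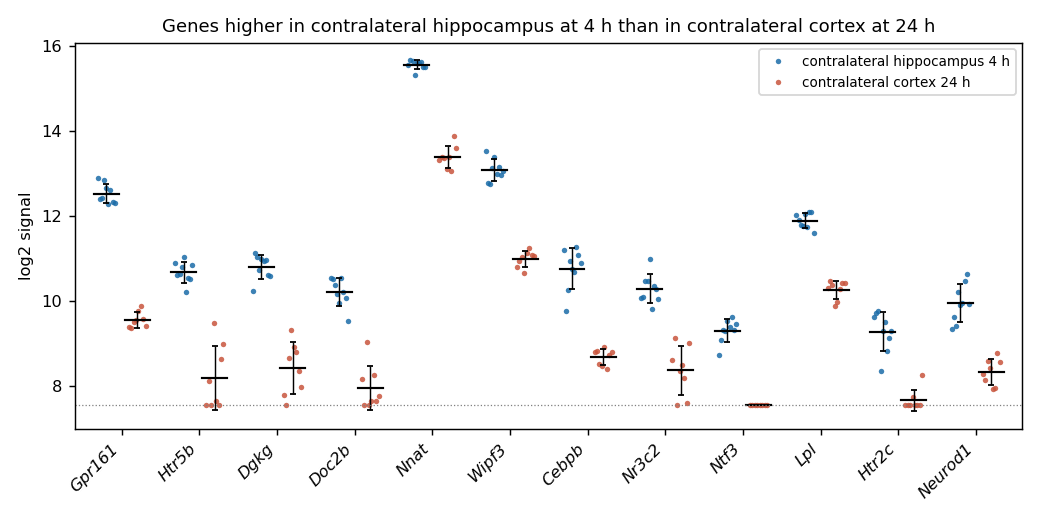
Log2 signal of the 12 genes with the largest rises on each array of contralateral hippocampus at 4 h (blue, n = 9) and contralateral cortex at 24 h (red, n = 8); bars are means with SD and the dotted line is the floor at 7.54. The groups do not overlap for any of the 12, which the naming rule required, and all cortical arrays lie on the floor for the Ntf3 probe set shown.

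Genes that were lower in hippocampus were led by Kcns1, a potassium channel subunit that is electrically silent alone and modifies other channels. It was above the floor on 1 of 9 hippocampal arrays (7.84, array 23) and at 10.24, 10.79 and 11 in cortex. The difference was at least 8.8-fold (log2 −3.14, SE 0.13, limma adjusted p = 1.42e-24), the largest in either direction among the named genes. The olfactory receptor gene Olr59 ran from 7.54 to 9.09 in hippocampus and from 11.02 to 11.52 in cortex (6.45-fold). It was measured by 1 probe set, and cross-hybridisation with related receptor genes was not tested.

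Rgs4, which speeds the shut-off of G protein signals, stood at 11.26, 11.90 and 12.87 in hippocampus and 14.04, 14.34 and 14.64 in cortex, a 4.85-fold difference (log2 −2.28, SE 0.17, limma adjusted p = 4.48e-15). Ptgfrn, a membrane protein of the immunoglobulin superfamily, ran from 7.54 to 8.64 against 9.67 to 10.50 (4.52-fold). Its brighter probe set was 2.34-fold lower. Dact2, a modulator of Wnt and TGF-beta signalling, ran from 10.11 to 11.41 against 12.29 to 13.02 (4.12-fold). Stard8 was above the floor on 1 of 9 hippocampal arrays and ran from 9.37 to 10.14 in cortex (at least 4.02-fold).

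Medag, a gene first described in fat cell formation, ran from 7.54 to 9.15 in hippocampus and from 9.68 to 10.77 in cortex (4.08-fold). Cox6a2, the muscle-type subunit of cytochrome oxidase that fast-spiking interneurons also carry, stood at 8.17, 9.84 and 9.96 against 11.04, 11.52 and 11.66 (3.98-fold, limma adjusted p = 4.99e-14), with both probe sets called. The other, brighter one was 2.38-fold lower. The remaining 4 of the 12 largest falls, Egr2, Dusp1, Homer1 and Egr1, are activity-regulated genes.

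**Figure D2:**
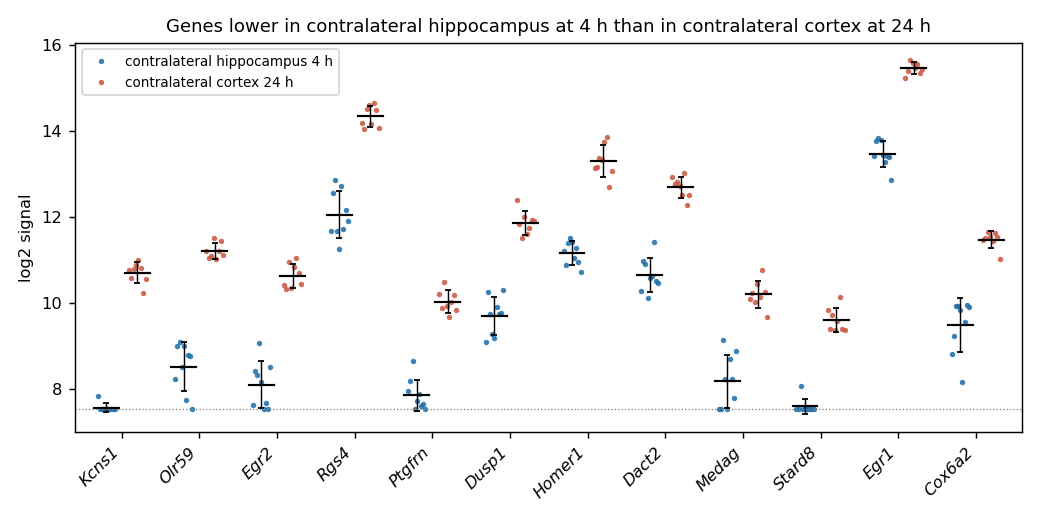
Log2 signal of the 12 genes with the largest falls on each array of contralateral hippocampus at 4 h (blue, n = 9) and contralateral cortex at 24 h (red, n = 8); bars are means with SD and the dotted line is the floor at 7.54. Kcns1 and Stard8 leave the floor on 1 hippocampal array each, and Egr1 is well above it in both groups.

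Immediate early and activity-regulated genes were lower in hippocampus at 4 h than in cortex at 24 h as far as they passed. Of 24 measured, 11 were lower, 0 higher and 13 did not pass, with a median difference of −0.367, while 9.85% of all genes were lower. The lower count was 12 without array 23 and 11 without array 32 (range 11 to 13). Past the threshold were the transcription factors Egr1, Egr2, Fos, Nr4a1 and Klf10, the phosphatases Dusp1 and Dusp6, and the synaptic or secreted products Arc, Homer1, Nptx2 and Vgf. Bdnf (0.31), Jun (0.13), Atf3 (0.32) and Nr4a3 (0.23) were among those that did not pass. A second, dimmer probe set of Nr4a2 did pass, in the other direction (0.66, SE 0.15, limma adjusted p = 0.000993).

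Promoter sequence is shown for 3 of these lower genes, to let a reader see the elements that activity-driven factors are known to bind. Each is the 250 bases before the annotated start in RefSeq (rat build GRCr8), written 5-prime to 3-prime on the gene's own strand. Capitals mark the core TGACG of the cyclic AMP response element, or the CArG box that serum response factor binds, found on either strand. The windows lie at chr10:17184603-17184852 (plus strand), chr20:21054442-21054691 (minus) and chr7:134259888-134260137 (plus).
Dusp1: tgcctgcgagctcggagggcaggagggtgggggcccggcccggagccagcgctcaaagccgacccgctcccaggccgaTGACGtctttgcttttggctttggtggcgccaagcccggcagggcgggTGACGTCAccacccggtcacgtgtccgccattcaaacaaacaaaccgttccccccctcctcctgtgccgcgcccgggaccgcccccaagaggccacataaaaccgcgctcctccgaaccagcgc
Egr2: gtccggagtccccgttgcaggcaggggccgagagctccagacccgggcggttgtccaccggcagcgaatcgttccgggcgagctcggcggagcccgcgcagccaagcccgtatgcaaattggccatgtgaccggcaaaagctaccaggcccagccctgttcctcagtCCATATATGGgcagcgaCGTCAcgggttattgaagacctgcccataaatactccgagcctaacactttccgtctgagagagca
Nr4a1: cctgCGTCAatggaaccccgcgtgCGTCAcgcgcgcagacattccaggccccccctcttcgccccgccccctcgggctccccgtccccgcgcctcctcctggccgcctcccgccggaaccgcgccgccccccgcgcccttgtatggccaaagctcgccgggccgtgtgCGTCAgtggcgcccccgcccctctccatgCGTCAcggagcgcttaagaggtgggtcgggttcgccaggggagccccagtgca

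The core TGACG was found 3 times in the Dusp1 window, once for Egr2 and 4 times for Nr4a1. In Dusp1 the overlapping pair forms the full element TGACGTCA, and Egr2 also has 1 CArG box. Of the 11 lower genes, 8 had a promoter in the table used (not Fos, Arc or Klf10). The core occurred in 6 of the 8, against 19% of 27457 promoters of the genome and 26.3% of those of the genes tested. Over the whole list of activity genes it occurred in 11 of 17 with a promoter, so members that did not pass hold it as well. The full element occurred in 2 of 8 (Dusp1 and Vgf), against 1.7% of all promoters and 2.45% of those of the genes tested. The CArG box occurred in 2 of 8 (Egr1 and Egr2), against 1.5% and 1.58%. Over the whole list of activity genes the full element occurred in 3 of 17 and the CArG box in 2 of 17. Homer1 and Dusp6 held none of these letters in the window. These are matches of letters in a window, and no binding was measured.

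Egr1, a zinc finger factor of synaptic plasticity, had levels of 12.86, 13.43 and 13.83 in hippocampus and 15.23, 15.46 and 15.65 in cortex at 24 h. It was 3.99-fold lower (log2 −2, SE 0.15, limma adjusted p = 4.1e-15), with 4 of 4 probe sets called. Egr1 was 1.8-fold lower in its least changed probe set. Its levels in contralateral cortex at 4 h were 14.47, 14.85 and 15.60, above every hippocampal array. Compared with that group, which shares its hippocampal arrays with the main comparison, the difference was −1.51 (limma adjusted p = 1.53e-11).

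Egr2, a related factor, was above the floor on 7 of 9 hippocampal arrays (7.54, 8.17 and 9.08) and stood at 10.32, 10.58 and 11.05 in cortex at 24 h (5.79-fold, log2 −2.53, SE 0.28, limma adjusted p = 4.54e-10). Contralateral cortex at 4 h spread from 8.60 to 10.78 and overlapped both. The difference to it was −1.71 (limma adjusted p = 4.03e-06).

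Dusp1, a phosphatase that switches off MAP kinases, stood at 9.09, 9.76 and 10.29 in hippocampus and 11.50, 11.87 and 12.39 in cortex (4.48-fold, log2 −2.16, SE 0.20, limma adjusted p = 1.21e-12), with 3 of 3 probe sets called. Its brightest probe set was 3.13-fold lower. Homer1, a scaffold of postsynaptic metabotropic receptors, stood at 10.72, 11.22 and 11.51 against 12.70, 13.26 and 13.87 (4.41-fold, SE 0.16 log2 units, limma adjusted p = 8.37e-15), with 6 of 6 called. Another Homer1 probe set, the brightest, differed by −0.87, and the cause of this gap between probe sets was not tested.

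Nr4a1, an orphan nuclear receptor, ran from 10.80 to 12.15 in hippocampus and from 12.70 to 13.44 in cortex (2.86-fold, limma adjusted p = 1.73e-06). Fos, a subunit of the AP-1 factor, ran from 11.48 to 11.89 against 12.23 to 12.77 (1.81-fold, adjusted p = 7.2e-05), with 3 of 3 probe sets called. Arc, a protein of dendritic mRNA transport and receptor endocytosis, ran from 12.09 to 13.24 against 13.10 to 13.90 (1.99-fold, adjusted p = 0.000402). The groups overlapped for Arc but not for Fos or Nr4a1.

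In the probe sets given above, the cortical time points (24 h minus 4 h) differed by 0.48 for Egr1 (limma adjusted p = 0.0189), 0.83 for Egr2 (0.0326) and 0.56 for Dusp1 (0.0356). The difference did not pass for Fos (0.39), Nr4a1 (0.32), Arc (0.06) or the leading Homer1 probe set (0.24). Probe sets of a gene did not all give the same call. For Homer1, 4 of 6 were higher at 24 h, the brightest by 0.42 (limma adjusted p = 0.000127) and another by 0.94 (7.54e-07). The brightest Dusp1 probe set did not pass (0.09). Within contralateral cortex at 4 h, arrays 9 to 11 stood above arrays 12 to 16 for Egr1 (15.45 to 15.60 against 14.47 to 14.88). The same held for Egr2 (10.40 to 10.78 against 8.60 to 9.76) and the leading Dusp1 probe set (11.33 to 12.12 against 10.68 to 11.18). The cortical time points also differed in spike-in level, as given above. The part of that level and of the split among arrays in these values was not tested. Fos differed from cortex at 4 h by −0.47 (limma adjusted p = 0.0241) and Arc by −0.93 (0.000587).

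**Figure D3:**
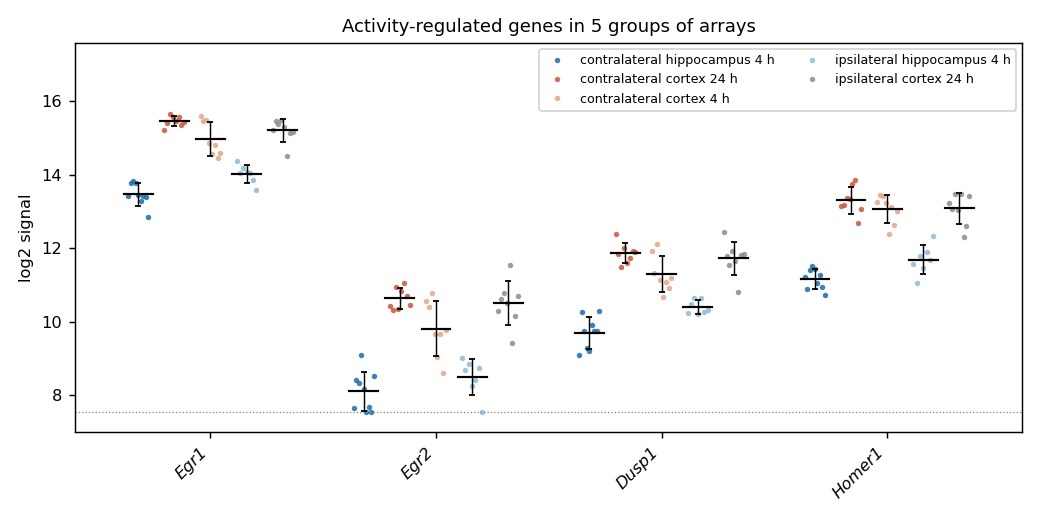
Log2 signal of Egr1, Egr2, Dusp1 and Homer1 on each array of 5 groups: contralateral hippocampus at 4 h (n = 9), contralateral cortex at 24 h (8) and at 4 h (8), ipsilateral hippocampus at 4 h (7) and ipsilateral cortex at 24 h (8); bars are means with SD and the dotted line is the floor at 7.54. Contralateral hippocampus has the lowest mean of the 5 groups for all 4 genes.

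Of 19 injury and cytokine genes measured, 2 were higher (Cebpb and Myc; range 1 to 4, with 1 without array 23 and 4 with the spike-in covariate), 0 lower and 17 did not pass. The difference was above 0 for 18 of 19, with a median of 0.406 over the list against 0.085 over all genes, of which 2654 of 4242 were above 0. The chemokines Ccl2 (0.64), Cxcl10 (0.63) and Ccl3 (0.29) and the cytokine Il1b (0.48) did not pass, and Ccl3 was at the floor on all cortical arrays. The summed signal of the list ran from 16660 to 29030 in hippocampus, 11420 to 17160 in cortex at 24 h and 9316 to 18490 in contralateral cortex at 4 h, so the first pair of groups overlapped. Of 7 corticosteroid response genes, Nr3c2 and the kinase Sgk1 (0.49, SE 0.12, limma adjusted p = 0.00262) were higher, and the stress peptide gene Crh was lower (range of lower counts 1 to 2).

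Glutamate receptor genes differed by subunit. Of 10 AMPA and kainate receptor genes 2 were higher and 1 lower (range 1 to 2). Gria1, the AMPA receptor subunit moved into synapses during potentiation, ran from 12.60 to 13.19 in hippocampus and from 11.63 to 12.04 in cortex (2.24-fold, SE 0.09 log2 units, limma adjusted p = 8.37e-15), with 3 of 3 probe sets called. Grik4, a kainate receptor subunit of mossy fibre synapses, ran from 10.73 to 11.28 against 8.91 to 10.19 (2.22-fold). Gria3 went the other way, 10.65 to 10.91 against 11.50 to 11.78 (1.78-fold lower, limma adjusted p = 1.02e-07), while its other probe set did not pass (−0.36, adjusted p = 0.0658). In the probe sets whose levels are given, the groups did not overlap for any of these 3 genes. Gria4 did not pass by its brightest probe set (−0.31), but dimmer ones were lower (−0.76 and −0.94, limma adjusted p = 0.00619 and 0.000576).

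Of 6 NMDA receptor genes, 0 passed by their brightest probe set in limma, and 1 had an unadjusted p under 0.05 (Grin2d, with a difference of 0.25). Grin2a (−0.03) and Grin2b (0.02) differed least. Of the 4 probe sets of Grin1, the obligatory subunit, 1 was lower (−0.91, limma adjusted p = 7.92e-07) and 1 higher (0.62, limma adjusted p = 0.0421), the latter with 6 of 9 hippocampal arrays and 3 of 8 cortical arrays above the floor. Of 10 metabotropic receptor and scaffold genes 2 were higher, the scaffolds Homer2 and Homer3, and 3 lower: Homer1, Grm2 and Grm3. Grm3, a receptor of astrocytes and neurons, ran from 12.54 to 13.08 in hippocampus and from 13.52 to 14.05 in cortex (1.83-fold lower, limma adjusted p = 2.96e-12).

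GABA receptor genes also divided by subunit: of 18 genes of the GABA system 2 were higher (range 1 to 2) and 5 lower (range 5 to 8), with a median of −0.178. Gabra5, the extrasynaptic subunit prominent in hippocampal pyramidal neurons, ran from 9.72 to 10.41 in hippocampus and from 8.21 to 9.43 in cortex (2.4-fold, limma adjusted p = 4.16e-08). Gabrd, the subunit of tonic inhibition, ran from 10.96 to 11.78 against 12.28 to 12.71 (2.47-fold lower, limma adjusted p = 1.61e-12). Array 32 was the lowest hippocampal array for Gabra5 and the highest for Gabrd, far from the other 8 in both.

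Gabra4 was 2.78-fold lower in hippocampus than in cortex at 24 h (7.54 to 8.69 against 8.84 to 9.97, limma adjusted p = 8.45e-07), but differed from cortex at 4 h by −0.15 (adjusted p = 0.639); in its brighter probe set these values were −0.97 and −0.38. Gabrb2, Gabra3 and Gabbr2 were lower by smaller amounts. The genes of GABA synthesis, Gad1 (−0.20) and Gad2 (−0.11), and the vesicular transporter Slc32a1 (−0.15) did not pass.

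Monoamine receptors were the group with the widest range: of 27 genes 7 were higher and 5 lower, from Htr5b at 2.49 to Adrb1 at −1.96. The higher ones were 5 serotonin receptors (Htr1a, Htr2c, Htr3a, Htr4 and Htr5b), the dopamine receptor Drd5 and the adrenergic receptor Adrb3. The lower ones were Adrb1, Adra1b, Htr2a, Drd1 and Drd2. Htr1a, the inhibitory serotonin receptor of pyramidal neurons, stood at 7.66, 9.38 and 9.91 in hippocampus, and 2 of 8 cortical arrays lay above the floor (2.97-fold, limma adjusted p = 6.23e-07).

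Htr2a, the excitatory serotonin receptor of cortical layer V, ran from 7.54 to 8.64 in hippocampus and from 8.91 to 9.39 in cortex (2.3-fold lower). Adrb1, the beta-1 adrenergic receptor, ran from 7.54 to 9.23 against 10.23 to 10.55 (3.88-fold lower, limma adjusted p = 3.69e-10). The dopamine receptors of the stimulatory class split: Drd5 ran from 10.22 to 11.04 against 9.11 to 9.82 (2.19-fold higher), and Drd1 from 8.42 to 9.27 against 9.22 to 10.69 (2.46-fold lower).

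Of 14 acetylcholine receptor and esterase genes 3 were higher (Ache, Chrna2 and Chrna7) and 1 lower (Chrm3; range 1 to 2). Of 16 neuropeptide receptors 3 were higher (Adcyap1r1, Sstr5 and Ntsr2; range 0 to 4) and 1 lower (range 1 to 3), the cholecystokinin receptor Cckbr (−0.66, limma adjusted p = 0.000879). A second probe set of the muscarinic receptor Chrm4 was lower by 2.1-fold with no overlap, while its brightest probe set did not pass (0.13).

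Neuropeptide genes were mostly lower where they passed: of 19 measured, 9 were lower (range 8 to 10) and 2 higher (Avp and Scg2; range 1 to 2), with a median of −0.213. Vip, a peptide of disinhibitory interneurons, ran from 9.15 to 9.83 in hippocampus and from 10.82 to 11.37 in cortex (2.97-fold, SE 0.12 log2 units, limma adjusted p = 1.56e-14). Crh, corticotropin-releasing hormone, ran from 7.54 to 9.03 against 9.69 to 10.08 (2.87-fold). Penk, the enkephalin precursor, ran from 10.07 to 10.97 against 10.18 to 12.21, with overlap (2.43-fold, adjusted p = 4.51e-05).

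Cck, the abundant peptide of basket cells and pyramidal neurons, ran from 13.49 to 14.17 in hippocampus and from 14.32 to 14.69 in cortex (1.68-fold lower, limma adjusted p = 1.83e-09). Npy (−0.49), Tac1 (−0.86), Cartpt (−0.82), Adcyap1 (−0.39) and Vgf (−0.32) were the other lower ones. Sst, the somatostatin gene, differed by 0.02 (SE 0.11, limma adjusted p = 0.935), with arrays from 14.65 to 15.18 in hippocampus and from 14.71 to 15.21 in cortex.

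Potassium channel genes held 14 lower and 4 higher members of 36 measured, with a median of −0.283. After Kcns1 came Kcnj9 (−1.45), Kcnf1 (−1.35) and Kcnh1 (−1.20). Kcnf1, another silent subunit, ran from 9.51 to 10.77 in hippocampus and from 11.31 to 11.75 in cortex (2.56-fold, limma adjusted p = 9.4e-10). Kcnh1, an ether-a-go-go channel, ran from 9.79 to 11.20 against 11.54 to 12.48 (2.3-fold), and Kcnk1, a leak channel, from 11.45 to 11.87 against 12.34 to 12.78 (1.81-fold, limma adjusted p = 2.12e-12). The groups did not overlap for these 3.

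Kcnc1 (−0.62) and Kcnc2 (−0.75), channels that let interneurons fire fast, were lower as well. The higher members were the beta subunits Kcnab1 and Kcnab2, the small-conductance channel Kcnn1 and the silent subunit Kcng1. Kcnab1 ran from 11.41 to 11.82 in hippocampus and from 10.50 to 10.96 in cortex (1.85-fold, limma adjusted p = 3.52e-05). Without array 23 the counts were 12 lower and 3 higher, and without array 32 they were 14 and 4.

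Of 19 sodium and calcium channel genes 6 were lower (range 6 to 7) and 3 higher (range 1 to 3). Scn1a, the sodium channel of interneurons, ran from 10.11 to 11.54 in hippocampus and from 11.95 to 12.96 in cortex at 24 h (3.21-fold lower, SE 0.21 log2 units, limma adjusted p = 8.83e-09). Against cortex at 4 h the difference was −0.76 (adjusted p = 0.00357), and the cortical time points differed by 0.92 (adjusted p = 0.00115). Cacnb4, a calcium channel beta subunit, was 2.08-fold lower than in cortex at 24 h and differed from cortex at 4 h by −0.36 (adjusted p = 0.0502).

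Calcium-binding proteins, several of which mark interneurons, held 5 higher (range 2 to 5) and 7 lower (range 6 to 7) of 15. Calb2 (calretinin) ran from 11.81 to 12.96 in hippocampus and from 10.36 to 10.92 in cortex (2.82-fold higher, SE 0.11 log2 units, limma adjusted p = 6.91e-15), with array 32 highest and apart. Hpca (hippocalcin), a calcium sensor of pyramidal neurons, ran from 14.41 to 14.79 against 13.82 to 14.06 (1.62-fold higher, limma adjusted p = 4.91e-13). Pvalb (parvalbumin) went the other way, from 10.72 to 11.60 against 12.10 to 12.68 (2.22-fold lower, limma adjusted p = 8.13e-13).

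Calb1 (calbindin) was 1.75-fold lower (11.50 to 12.58 against 12.82 to 13.11) and Cabp1 (caldendrin), measured by 2 probe sets, 3.05-fold lower (9.31 to 10.90 against 11.39 to 12.08). Neither gene's groups overlapped. Calcium-dependent kinases, phosphatases and their regulators held 12 lower (range 10 to 13) and 5 higher (range 1 to 7) of 27. Camk2n1, an inhibitor of the kinase CaMKII, ran from 11.47 to 12.11 in hippocampus and from 12.96 to 13.48 in cortex at 24 h (2.73-fold lower, limma adjusted p = 1.86e-17). It was still brighter in cortex at 4 h, with a median of 13.99 and a difference to hippocampus of −2.33. The kinase subunits Camk2a (−0.01) and Camk2b (0.20) did not pass, while Camk2g (−0.79) and Camk2d (−0.65) were lower. Prkce, a protein kinase C, was 1.52-fold higher with 4 of 4 probe sets called.

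Of 27 genes of synaptic vesicle release, 7 were lower (range 6 to 12) and 3 higher (range 2 to 4). Stx1a, the syntaxin of the fusion complex, ran from 12.19 to 13.27 in hippocampus and from 14.08 to 14.48 in cortex (2.43-fold lower, SE 0.09 log2 units, limma adjusted p = 6.36e-16). Rims1, a scaffold of the active zone, ran from 10.75 to 11.59 against 11.91 to 12.58 (2.3-fold lower). The calcium sensors differed in direction, with Doc2b and Syt3 higher and Syt2, Syt4 and Doc2a lower. Syp (−0.08) and Syn1 (−0.16), general markers of vesicles, did not pass.

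Transcription factors of the forebrain divided about evenly, with 5 higher (range 5 to 7) and 6 lower (range 5 to 7) of 21. Neurod1, Neurod2, Nfib, Tcf4 and Nr2f2 were higher, and Cux1, Rorb, Pou3f2, Pou3f3, Nr2f1 and Id2 were lower. The related nuclear receptors Nr2f2 (1.34, SE 0.21, limma adjusted p = 1.93e-06) and Nr2f1 (−0.88, limma adjusted p = 9.02e-07) had opposite signs. Pou3f2, a factor of upper-layer neurons, ran from 8.40 to 9.65 in hippocampus and from 10.41 to 10.83 in cortex (2.65-fold lower).

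Of 40 genes of axon guidance, adhesion and growth factors, 10 were higher (range 7 to 11) and 7 lower (range 5 to 7). Nrp1, a receptor for semaphorins, ran from 11.24 to 11.94 in hippocampus and from 10.31 to 10.78 in cortex (2.12-fold, limma adjusted p = 5.9e-12). Fgfr1, a fibroblast growth factor receptor, ran from 11.69 to 12.71 against 10.67 to 11.19 (2.7-fold, limma adjusted p = 9.33e-12). Its brightest probe set was 1.98-fold higher, and a dim one did not pass (0.14). The guidance ligand Sema3a was at the floor on every hippocampal array and at least 1.67-fold lower, and the receptor Nrp2 was at the floor on every cortical array and at least 1.47-fold higher. The neurotrophin receptor Ntrk2 (−0.63) and the ephrin Efna5 (−0.89) were lower, and the Eph receptors Epha7 (0.93), Epha5 (0.53) and Ephb1 (0.40) were higher.

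**Figure D4:**
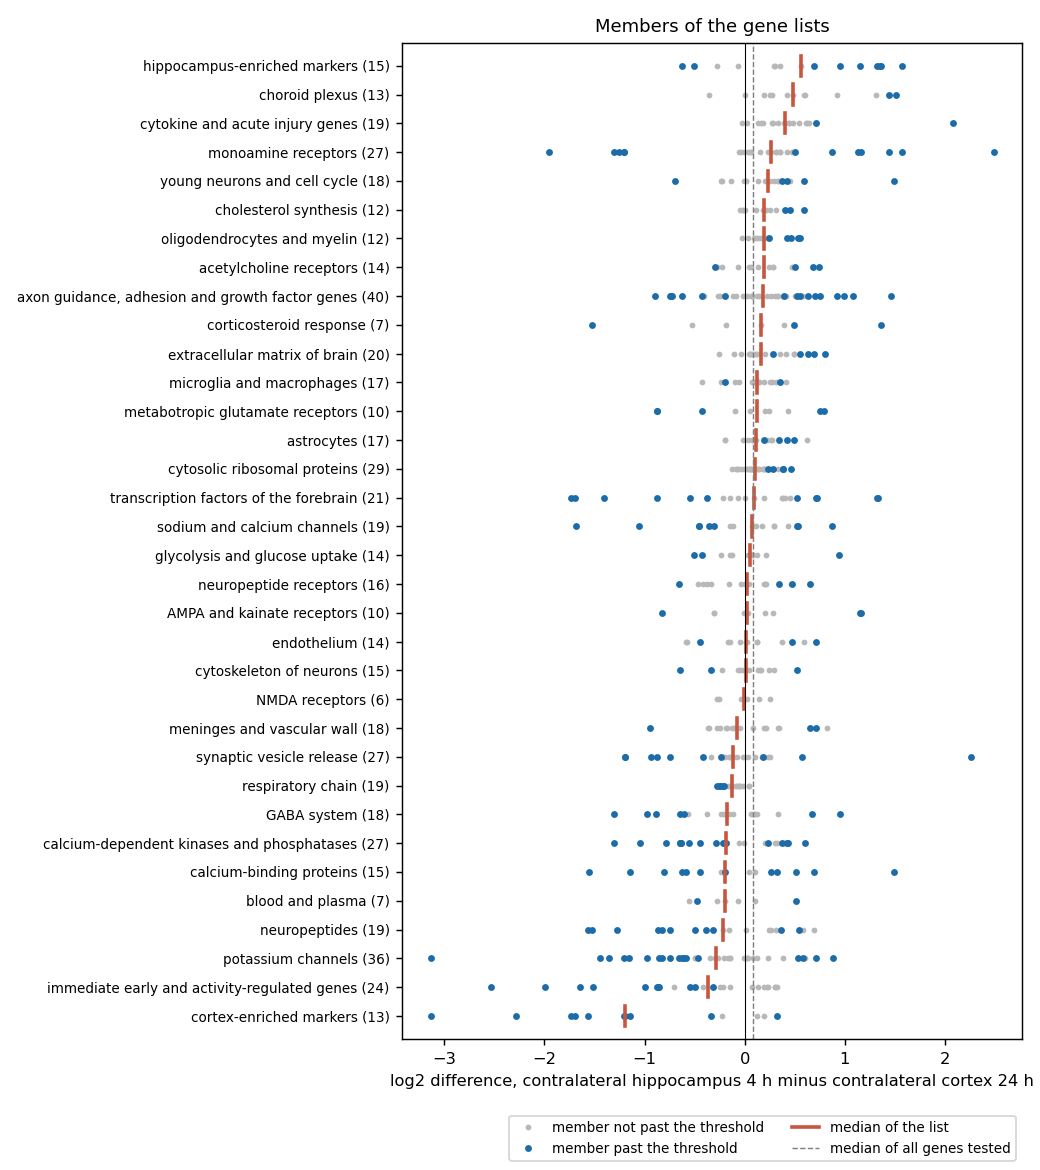
Log2 difference (contralateral hippocampus at 4 h minus contralateral cortex at 24 h) of each measured member of 34 gene lists, with the number measured in parentheses; blue points passed the threshold, grey points did not, red bars are list medians and the dashed line is the median of all genes (0.085). Hippocampus-enriched markers have the highest median (0.565) and cortex-enriched markers the lowest (−1.2). The lists were chosen with earlier results of these data known.

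Markers of other cells that a dissection could hold were measured beside these groups. Of 13 choroid plexus markers 2 were higher, Htr2c and Calml4 (2.85-fold, limma adjusted p = 4.68e-11), and 0 lower. Ttr, the transthyretin gene that defines choroid plexus, spread from 10.30 over 15.14 to 16.32 in hippocampus and from 9.28 over 11.98 to 15.56 in cortex, and its difference of 1.31 (SE 1.12) did not pass. The difference was above 0 for 12 of 13 members, with a median of 0.479 over the list against 0.085 over all genes. The summed signal of the list ran from 15800 over a median of 58420 to 116000 in hippocampus. In cortex it ran from 16430 over 23930 to 70580. The part of choroid plexus in the results for Htr2c and Calml4 was not tested.

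Of 12 oligodendrocyte and myelin markers 5 were higher (Mbp, Pllp, Mag, Sox10 and Cspg4) and 0 lower, by 0.24 to 0.55, and the summed signal ran from 211600 to 268100 against 166200 to 255400. The range of higher counts was 1 to 5. Mbp, the myelin basic protein gene, was 0.24 above cortex at 24 h and not past the threshold against cortex at 4 h (−0.17). Of 17 astrocyte markers 4 were higher (Gja1, Nes, Ntsr2 and Apoe; range 1 to 3), with summed signal of 382000 to 449700 against 359700 to 399100. Of 17 microglia and macrophage markers 1 was higher (C1qc; 0 under all 6 other settings) and 1 lower (Ctss; range 0 to 1), with sums of 31090 to 39250 against 32010 to 42410.

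Of 18 markers of meninges and vessel wall, 2 were higher (Lum and Pdgfra) and 1 lower (range 1 to 2), Ptgds (−0.95), and the sums ran from 35130 to 66200 against 56520 to 62430. Dcn did not pass by its brightest probe set (0.82) or by a dim one (0.47). Other Dcn probe sets were higher (1.23 and 0.98, limma adjusted p = 4.7e-06 and 0.00142), with overlap of the groups. Of 14 endothelial markers 2 were higher (Abcb1b and Icam2; 1 under all 6 other settings) and 1 lower (Slco1a4; range 0 to 2, with 0 without array 23). Abcb1b was above the floor on 0 of 8 cortical arrays, which makes its 1.64-fold difference a lower bound. Of 7 blood and plasma markers 1 was higher (Slc4a1; range 0 to 1) and 1 lower (range 0 to 1), the haemoglobin gene Hbb (−0.47, limma adjusted p = 0.0103), and S100a8 was at the floor on every cortical array. For all of these lists the groups overlapped in summed signal, and the part of such cells in the results above was not tested.

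Matrix, ribosomal, respiratory, metabolic and cytoskeletal genes were examined last. Of 20 matrix genes 5 were higher (Gpc1, Ncan, Timp3, Sdc4 and Bcan) and 0 lower; Gpc1, a heparan sulfate proteoglycan, was 1.74-fold higher without overlap (limma adjusted p = 1.06e-09). Of 29 cytosolic ribosomal protein genes 5 were higher (range 2 to 9) and 0 lower, with Rplp0 (0.47) first. Of 19 respiratory chain genes 0 were higher and 5 lower (range 3 to 8, with 3 without array 23), from −0.20 to −0.28 in their brightest probe sets, and a dimmer probe set of Cox5b was lower as well (−0.34). Of 18 genes of young neurons and the cell cycle 4 were higher (Calb2, Mcm7, Nes and Cd24; range 2 to 4) and 1 lower (Stmn1, −0.70; range 1 to 3). Of 12 cholesterol synthesis genes 3 were higher (Mvd, Sqle and Fdps; range 2 to 5), of 14 genes of glycolysis and glucose uptake 1 was higher (Pfkl, 0.94) and 2 lower (Pfkp and Pgk1), and of 15 neuronal cytoskeleton genes 1 was higher (Prph; range 0 to 1, with 0 without array 32) and 2 lower (Nefm and Nefh; range 1 to 3).

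The same contrast on the ipsilateral side asked whether the differences recur in other samples: ipsilateral hippocampus at 4 h (7 arrays) against ipsilateral cortex at 24 h (8), none of which is among the 17. They may come from the same animals. On that side 987 of 7503 probe sets passed (13.2%), 559 higher (7.45%) and 428 lower (5.7%). Of the contralateral calls 635 also passed there, all 635 in the same direction, which is 42.8% of the contralateral and 64.3% of the ipsilateral calls. In sign alone, 85.7% of contralateral calls agreed, compared with 59.6% of all probe sets. Of 207 contralateral calls of at least 2-fold, 203 had the same sign and 170 passed. Pearson's r between the differences of the sides was 0.86 over the 1483 called probe sets and 0.58 over all 7503, as a description across probe sets, which share arrays.

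Gpr161 differed by 3.10 on the ipsilateral side against 2.97 on the contralateral side, Nnat by 2.03 against 2.18, Kcns1 by −2.79 against −3.14 and Rgs4 by −1.80 against −2.28. Egr1 differed by −1.18 against −2 and Dusp1 by −1.32 against −2.16. The microglial gene Spp1, which did not pass on the contralateral side (0.19), was lower in hippocampus than in cortex on the ipsilateral side (−1.82, limma adjusted p = 0.0343). The test of the difference between the sides, given next, did not call Spp1.

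A test of the difference between the sides called 4 of 7503 probe sets (0.0533%) in limma, and 1121 lay under an unadjusted p of 0.05. They were probe sets of Homer1 (1 of its 6), Cdk17 (2 of 2) and Gpd2 (1 of 3). The Homer1 probe set stood at 10.40, 11.29 and 11.78 in contralateral hippocampus and at 11.47, 12.12 and 12.35 in ipsilateral hippocampus, with cortical medians of 12.83 and 12.60. Its contrast was −1.58 on the contralateral and −0.57 on the ipsilateral side, which differ by −1.01 (SE 0.20, limma adjusted p = 0.0356).

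Cdk17, a kinase of the PCTAIRE family found in neurons, was lower in contralateral hippocampus than in cortex by both probe sets (−0.83 and −0.64) and did not pass on the ipsilateral side (−0.14 and −0.17); the sides differed by −0.69 and −0.47 (limma adjusted p = 0.0381 and 0.0491). Gpd2, the mitochondrial glycerol phosphate dehydrogenase, was higher in hippocampus on the ipsilateral side (0.98, limma adjusted p = 0.000295) and did not pass on the contralateral one (−0.31); the sides differed by −1.3 (SE 0.28, limma adjusted p = 0.0491). The count of 4 ranged from 0 with the 10th percentile of signal or the spike-in level as a covariate to 404 with array weights, so it is not a fixed number.

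**Figure D5:**
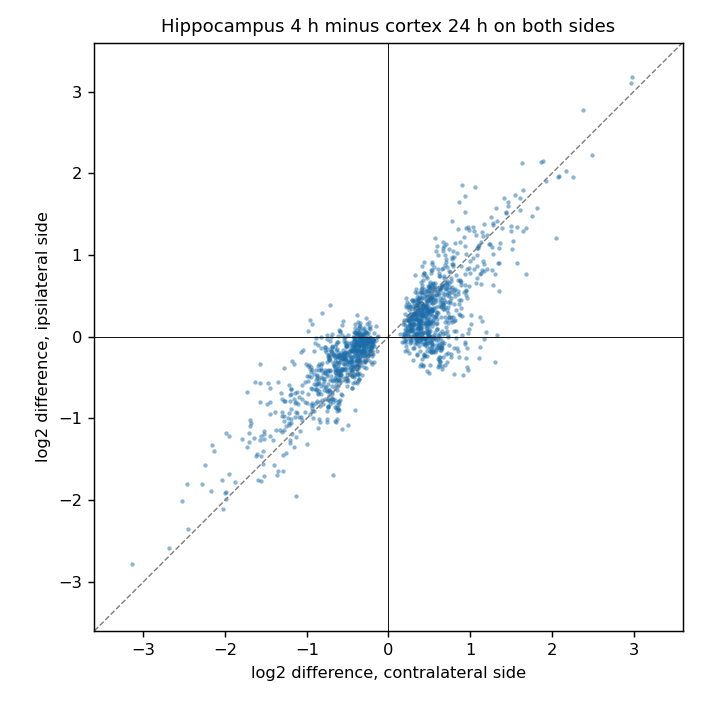
Each point is 1 of the 1483 probe sets called in the contralateral comparison, with its log2 difference (hippocampus at 4 h minus cortex at 24 h) on the contralateral side (x axis, 17 arrays) and on the ipsilateral side (y axis, 15 other arrays); the dashed line marks equal differences. Most points (85.7%) have the same sign on both sides.

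Contralateral cortex at 4 h gave the region difference at matched time for the leading genes, sharing the 9 hippocampal arrays with the main comparison. Gpr161 differed by 2.80 from cortex at 4 h and by 2.97 from cortex at 24 h, Nnat by 2 and 2.18, Kcns1 by −2.93 and −3.14, and Cux1 by −1.19 and −1.74. For Gpr161, Nnat and Kcns1 the cortical time points did not differ past the threshold (−0.17, −0.18 and 0.21), while for Cux1 they did (0.55, limma adjusted p = 0.000372).

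Some differences from cortex at 24 h were not seen against cortex at 4 h. Gabra4 (−1.47 and −0.15), Gria3 (−0.83 and −0.21) and Rplp0 (0.47 and 0.13) passed in the first comparison only, and for each of these 3 the cortical time points differed (1.32, 0.62 and −0.34, limma adjusted p = 2.7e-05, 0.0001 and 8.32e-05). Mobp, a myelin gene, in its called probe set was 0.83 above cortex at 24 h and −0.06 from cortex at 4 h. Some called probe sets changed sign. Those of Itpr1 (−0.59 and 0.98) and Car2 (−0.39 and 0.62) were higher in hippocampus than in cortex at 4 h (limma adjusted p = 0.000215 and 0.000189). The cortical time points differed there by 1.57 and 1.01. Another Itpr1 probe set was lower in both comparisons (−0.63 and −0.41). Cortex at 4 h also differed from the other groups in spike-in level, and time and that level cannot be told apart here.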

How the data were processed

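Total RNA from rat cortex and hippocampus was measured on 47 arrays with 8799 probe sets. The authors deposited 1 intensity for each probe set and array. The sources used here do not name the summary algorithm, scaling or software behind it. The 2%-trimmed means lay between 2503 and 2504 on all arrays, so the values were kept as deposited. They were raised to a floor of 185.8 and log2 was taken of the deposited intensity. After the 59 controls were left out, a probe set was tested if 7 or more arrays exceeded the floor, which left 7503. Gene names came from the platform annotation (7018 probe sets name 1 gene, 308 several, 1473 none; 6994 matched the reference by gene ID).

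All 47 arrays entered 1 linear model of 6 group means (limma 3.58.1, R 4.3.3, eBayes with trend), with SEs from the spread pooled over groups. The procedure was also run on simulated data with independent noise and no floor or array differences. That run checks the code and cannot show that the calls here are free of such effects. Quality measures were compared by exact two-sided permutation tests. The number of arrays limits the precision.

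Named genes were the 12 largest rises and 12 largest falls among called probe sets that name 1 gene, do not overlap and have the higher group above the floor throughout, and up to 2 rises and 2 falls per gene list. Other list members are named as the members past the threshold, or as examples chosen after their values were seen. In counts a gene is represented by its brightest probe set. Where a named value comes from another probe set past the threshold, the 2 can differ. The naming rule takes the probe set of largest change, so other probe sets of a gene can show a smaller fold. The members, lists and tests were chosen with earlier results of these data known. Sample numbers occur once each, so no pairing or block was used. Alternatives covered scaling, floor, filter, arrays in the fit, weights, covariates and leaving out each array.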

Additional observations from a re-analysis of the deposited data

Results flagged for a closer look

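In the 2 contralateral groups, 242 sets of values (each named gene and each quality measure in each group) were examined for a highest or lowest array far from the rest, and 28 were found where chance gives about 1 in 20. Array 32, a hippocampal array, accounted for 11. It was the highest of its group for Pcp4 (14.14), Slco1a4 (12.05), Gabrd (11.78), Kcnj9 (7.81), Cacnb4 (10.85), Calb2 (12.96) and Nefh (12.10), and the lowest for Grm3 (12.54), Gabra5 (9.72), Cacna1h (7.54) and Fgfr1 (11.69), all in log2 signal. Without it the comparison called 1340 probe sets, within the range of 1284 to 1596 found when any 1 array was left out.

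Among other hippocampal arrays, array 27 was lowest for Nnat (15.32) and Nr2f2 (8.52), array 26 highest for Stard8 (8.08) and Rorb (8.45), array 25 highest for Efna5 (8.10), and array 23 highest for Kcns1 (7.84) and lowest for Dcn (9.51). Kcns1, Stard8, Efna5, Kcnj9 and Rorb were at or near the floor on the rest of the group, so that any array above it stands apart.

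Among cortical arrays, array 48 was highest for Htr2c (8.24) and lowest for Cox6a2 (11.04), array 47 lowest for Tyro3 (11.84) and Nefm (13.44), array 45 lowest for Nrg1 (8.02), and array 41 lowest for Avp (9.36) and highest for Adcyap1r1 (8.07). Array 44 was lowest for Scg2 (11.23) and Kcnj9 (7.57) and highest for Oprm1 (7.61). Oprm1, Htr2c and Adcyap1r1 were at or near the floor on the rest of the cortical group, so that a small step above it stands apart. The chance rate given above need not hold for groups with many arrays at the floor.

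The contrast between hippocampus and cortex differed between the sides, by a test of that difference, for probe sets of Gpd2 (−1.3), Homer1 (−1.01) and Cdk17 (−0.685 and −0.473), each with the contralateral value the lower.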

How the results depend on the processing

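The contralateral comparison called 1483 probe sets and between 1171 (spike-in level as a covariate) and 1795 (array weights) under 11 other settings, and from 1284 to 1596 when 1 of its 17 arrays was left out. The ipsilateral one called 987, from 870 to 1039 with 1 array left out, and 1778 with array weights. The difference between the sides called 4, but 8 after quantile normalization, 1 after shifting arrays to the same median, 15 with the stricter filter, 111 with only the compared arrays in the fit, 404 with array weights, 2 with robust eBayes, and 0 with the 10th percentile of signal or the spike-in level as a covariate; the cause was not tested. Without array 23 the log2 difference in the 10th percentile of signal went from 0.317 to 0.237 and no longer passed, and that in the Gapdh ratio from 0.012 to −0.00102.

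Of 116 named genes 91 passed under every alternative and 0 reversed. These genes were picked among the calls of the main fit, many for large differences, so this share does not describe all calls. The call was lost under at least 1 alternative for Adcy3, Alb, Avp, C1qc, Cacna1h, Car2, Chrna2, Ctss, Eno1, Gabrb1, Grin1 (its higher probe set), Hbb, Hpcal4, Icam2, Mapt, Ndufa5, Nefh, Nes, Nrg1, Oprm1, Prph, Scg2, Slc4a1, Slco1a4 and Sqle. Counts of list members under these settings were added after seeing the data. The floor compresses differences of dim genes, and 1 floor was used for all arrays.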

Other observations

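Several named genes had values that belong to no comparison above. The neuropeptide gene Penk reached 10.18 on its lowest cortical array at 24 h, where the group's median was 12.04. The opioid receptor gene Oprm1, called in 1 of its 4 probe sets (0.96, limma adjusted p = 0.0148), reached 10.89 on 1 hippocampal array where the group's median was 7.91. The calcium release channel gene Itpr1 passed in 5 of 5 probe sets, but the most changed one was above the floor on 5 of 9 hippocampal arrays (7.54 to 10.04) and 8 of 8 cortical ones (9.34 to 10.39). Against contralateral cortex at 4 h another of the 5 had the other sign, as given above.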
